A study of Mus musculus with 3 samples.

Results

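YAP, encoded by Yap1, and TAZ, encoded by Wwtr1, are a pair of transcriptional coactivators, and the 10 genes described here are these cofactors, their DNA-binding partner Tead1 and 7 genes that the cofactors are known to switch on (Ctgf, Cyr61, Ankrd1, Amotl1, Amotl2, Lats2 and Axl). They were chosen by symbol, and all 10 were among the 18245 genes of the deposited table. Messenger RNA was sequenced from 3 kinds of cultured mouse cell, with 3 libraries each. The cardiosphere-derived cells (CDC), mesenchymal in shape, were grown from explants of the epicardium of 6-week-old C57BL/6 mice and, per the study's methods, used at passage 3. CDC-EpiC is clone 1, an epithelial colony picked with a cloning cylinder from CDC after 2 weeks under 10 µM SB-431542, which blocks the kinase activity of the type I receptor for TGF-beta. Primary epicardial cells (pEpiC) were released by collagenase and trypsin from hearts of C57BL/6 mice aged 6 to 8 weeks, also at passage 3. The clone therefore differed from CDC in the inhibitor, in the removal of mesenchymal cells and in the picking of a single colony. Its passage is not given, so passage and time in culture may differ as well. These differences cannot be told apart. By the study's methods, pEpiC and CDC also differed in medium, in the amount of serum and in the coating of the dish. CDC had passed through a cardiosphere stage as well. Kind of cell and culture therefore cannot be told apart between pEpiC and CDC. The extraction protocol speaks of separate samples, but no label says whether the 3 libraries of a kind came from separate animals or cultures, and the study's methods speak of fewer biological replicates per condition than these 3 libraries. The SD, SE and p-values with n = 3 therefore measure the spread between these libraries, which may be technical.

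In the Hippo pathway, the kinases MST1 and MST2 activate LATS1 and LATS2, which phosphorylate YAP and TAZ and keep them out of the nucleus. When the kinases are quiet, as in spread cells on a stiff substrate or at low density, YAP and TAZ enter the nucleus, bind TEAD factors and raise transcription of secreted matricellular proteins such as CTGF and CYR61. Several of their targets, LATS2 and the angiomotin-like proteins AMOTL1 and AMOTL2 among them, restrain YAP and TAZ in turn. In the epicardium, YAP and TAZ are known for roles in the transition of epithelial cells to mesenchymal ones.

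The TEAD motif is GGAATG, or CATTCC on the other strand, and its letters were searched in RefSeq promoter windows of GRCm38.p6, the same assembly as mm10, from 250 bases before to 50 bases after a gene's start. Windows were at hand for 8 of the 10 genes, all but Ctgf and Tead1. Of these 8 genes, 7 held the motif, and the window of Amotl1 did not. Over all genes with a window the share was 16.6% of 27025, and over all windows 14.7% of 32851. Ankrd1 held it in 2 places, as did 1.57% of all genes. The stretches below are shown because they carry these matches in the genes whose levels are described next, with the motif in capitals and each strand read 5′ to 3′ in the direction of its gene. In Cyr61 the match began 103 bases before the start (chr3:145650046-145650115, minus strand), in Ankrd1 210 and 123 bases before it (chr19:36119945-36120074, minus strand), and in Amotl2 65 bases before it (chr9:102717704-102717773, plus strand). The starts behind the printed matches of Cyr61, Ankrd1 and Wwtr1 are the annotated ends of their genes. Those used for Amotl1, Amotl2, Lats2, Axl and Yap1 lie inside the annotated span. The Amotl1 window (chr9:14614951-14615250, minus strand) lies far from the 5′ end of that gene's span at 14662974, where no window was searched.
Cyr61: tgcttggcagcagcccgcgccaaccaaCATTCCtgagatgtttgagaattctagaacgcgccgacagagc
Ankrd1: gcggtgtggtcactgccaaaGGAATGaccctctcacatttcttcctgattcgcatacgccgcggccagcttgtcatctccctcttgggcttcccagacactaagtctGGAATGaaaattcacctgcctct
Amotl2: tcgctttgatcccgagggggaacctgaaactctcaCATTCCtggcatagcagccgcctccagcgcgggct

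Short stretches around the match are given for the other 4 genes. They lie on the minus strand at chr7:25788949-25788978 (Axl), chr9:8004720-8004749 (Yap1), chr3:57576029-57576058 (Wwtr1) and chr14:57746102-57746131 (Lats2), and the match began 233, 141 and 136 bases before the start in the first 3 and 5 bases into the transcript in Lats2.
Axl: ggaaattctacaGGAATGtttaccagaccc
Yap1: cgggagtctgcaGGAATGtagcgacgcgca
Wwtr1: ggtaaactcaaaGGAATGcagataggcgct
Lats2: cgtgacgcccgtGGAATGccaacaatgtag
The AP-1 motif TGANTCA, present in 7.81% of all windows, and the CArG box of serum response factor, present in 1.63%, were in none of the 10 windows of these 8 genes. A match is a run of letters and not evidence of binding. Among the other genes of the pathway, 2 of 6 genes of the Hippo kinase core, 3 of 5 TEAD and VGLL genes, 5 of 13 upstream genes and 2 of 10 further targets with a window held the TEAD motif.

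All libraries were of like depth, with 22008833 to 22756045 expected counts each. Levels are CPM, counts scaled to a common library total after TMM normalization. Differences were tested by quasi-likelihood in edgeR over all genes, and p-values were adjusted by Benjamini-Hochberg with a threshold of 0.05. Macrophage markers were high in pEpiC, where the summed level of 10 genes was 862, 334 and 308 CPM in libraries 1, 2 and 3, against 58 to 61 CPM in CDC and 22.7 to 25.3 CPM in CDC-EpiC. Of 10 cardiomyocyte genes, Myh6 had 191, 190 and 0 counts in the CDC libraries and at most 1 elsewhere. Endothelial genes summed to at most 26.7 CPM in any library. The 8 epicardial genes were detected in all 9 libraries and summed to 505 to 550 CPM in CDC and pEpiC and 4734 to 5531 CPM in CDC-EpiC, a clone sum nearly all from Upk3b (2664 CPM) and Lrrn4 (2129 CPM). In the clone over CDC 5 of the 8 rose, Tbx18 and Krt19 fell and Aldh1a2 did not pass, and in pEpiC over CDC 4 rose and 4 fell. The 8 mesenchymal genes summed to 14160 to 16468, 7864 to 8891 and 22510 to 25010 CPM in CDC, CDC-EpiC and pEpiC, most of it in pEpiC from Col1a1 (11021 CPM) and Col1a2 (9945 CPM), while 5 of the 8 (Thy1, Eng, Cd44, Vim and S100a4) were lower in pEpiC than in CDC. In bulk RNA, fewer cells that express a gene and less of its RNA per cell cannot be told apart.

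**Figure D1:**
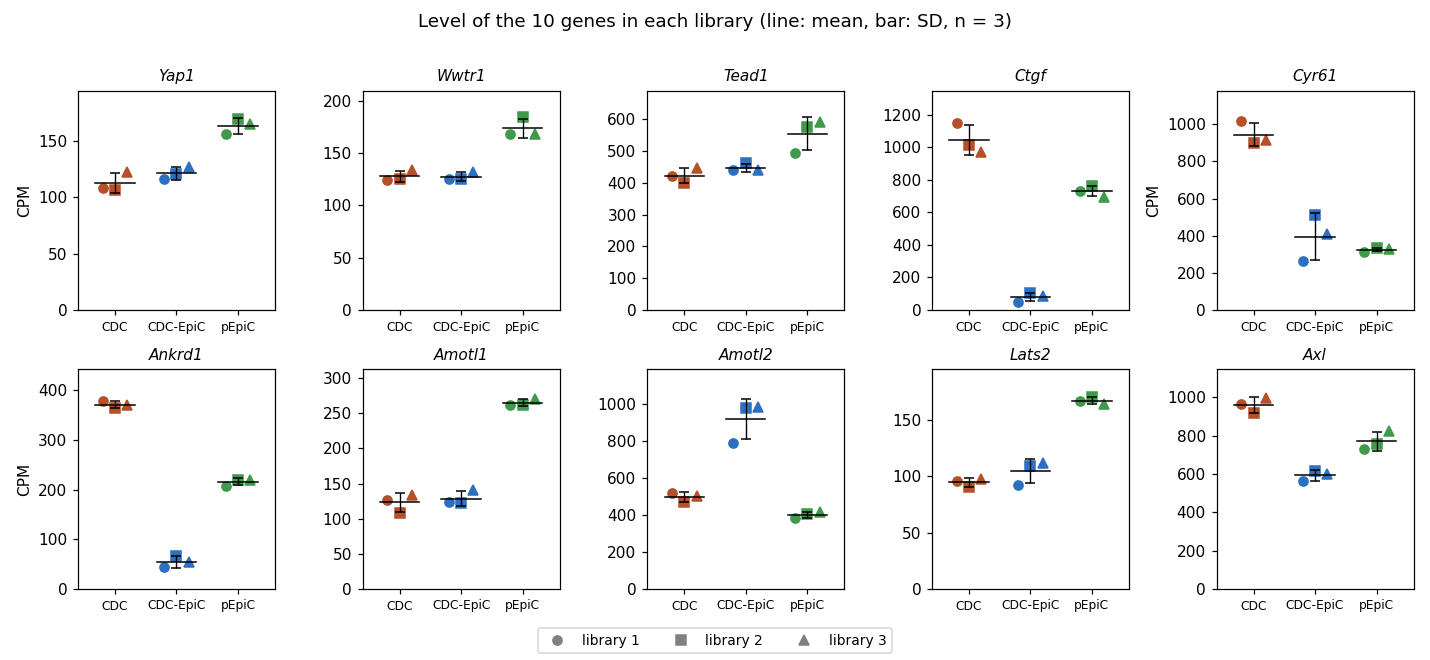
Level of each of the 10 genes in CPM (vertical axis, from 0) in the 3 libraries of CDC, CDC-EpiC and pEpiC, with a marker for each library number, a line at the mean and a bar for the SD (n = 3). Ctgf and Ankrd1 lie lowest in CDC-EpiC, Amotl2 lies highest there, and Yap1, Wwtr1, Tead1, Amotl1 and Lats2 lie highest in pEpiC.

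The transcripts of the cofactors and of Tead1 overlapped in level between CDC and the clone and were higher in pEpiC in CPM. Yap1 (chromosome 9, 7931999 to 8004638 in GRCm38.p6) stood at 108, 107 and 123 CPM in CDC, 116, 121 and 127 CPM in CDC-EpiC and 156, 170 and 165 CPM in pEpiC. The CDC and CDC-EpiC libraries overlapped, and every pEpiC library lay above them. Wwtr1 (chromosome 3, 57455644 to 57575910) stood at 124, 125 and 134 CPM in CDC, 125, 125 and 132 CPM in CDC-EpiC and 168, 184 and 168 CPM in pEpiC. Here too the CDC and clone libraries overlapped and every pEpiC library lay above them. Tead1 (chromosome 7, 112679356 to 112906784) stood at 421, 399 and 446 CPM in CDC, 439, 461 and 440 CPM in CDC-EpiC and 494, 575 and 591 CPM in pEpiC.

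Between CDC-EpiC and CDC none of these 3 passed the test in edgeR. The log2 change was 0.10 for Yap1 (95% interval −0.07 to 0.27, adjusted p 0.267), −0.02 for Wwtr1 (−0.17 to 0.14, adjusted p 0.849) and 0.07 for Tead1 (−0.09 to 0.24, adjusted p 0.422). Yap1 passed without CDC library 3 (0.16, adjusted p 0.0498) and when transcript length and GC content entered the fit as an offset (0.17, adjusted p 0.0191), and its adjusted p ranged from 0.019 to 1 over the alternatives. Between pEpiC and CDC all 3 rose, by log2 changes of 0.50 (SE 0.07, adjusted p 6.1e-05 in edgeR) for Yap1, 0.40 (SE 0.06) for Wwtr1 and 0.36 (SE 0.08) for Tead1. With the length and GC offset these became 0.17, 0.13 and −0.22, so that the direction for Tead1, whose longest transcript has 9964 bases, rests on the scaling. The same holds for CDC-EpiC against pEpiC, where log2 changes of −0.44, −0.46 and −0.32 for Yap1, Wwtr1 and Tead1 became −0.01, −0.05 and 0.30 with the offset. TPM, like FPKM, is a deposited measure that corrects for transcript length. With log2(TPM + 1) in limma, Yap1, Wwtr1 and Tead1 changed by 0.95, 0.89 and 0.85 in pEpiC over CDC. The median of all genes was 0.41 there. In CDC-EpiC over pEpiC the 3 changes were −0.81, −0.83 and −0.71, with a median of all genes of −0.33. Tead1 thus kept its direction in TPM and turned with the offset. In TPM the ratio of Yap1 to Wwtr1 was 1.05 ± 0.0457 in CDC, 1.11 ± 0.0473 in CDC-EpiC and 1.1 ± 0.0533 in pEpiC (SD, n = 3). The libraries of the 3 kinds overlapped.

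The targets Ctgf and Ankrd1 were far lower in the clone than in either kind of primary cell, whereas Cyr61 was lower than in CDC but not than in pEpiC. Ctgf (Ccn2, chromosome 10, 24595442 to 24598683) codes for a secreted matricellular protein of connective tissue. Its level was 1150, 1016 and 974 CPM in CDC, 51.9, 102 and 82.9 CPM in CDC-EpiC and 732, 760 and 697 CPM in pEpiC. No library of one kind overlapped another kind, and the highest clone library lay far below the lowest pEpiC library. Ctgf fell in CDC-EpiC to 0.075 of its CDC level (log2 −3.74, SE 0.18, adjusted p 1e-10 in edgeR), and was 0.107 of its pEpiC level (log2 −3.22, SE 0.20). The difference between pEpiC and CDC was smaller, at −0.56 on the log2 scale (SE 0.08, edgeR adjusted p 8.3e-05). With log2(TPM + 1) in limma that change was −0.05 (adjusted p 0.535, and 1.3e-12 to 0.672 over the alternatives), on a scale where the median of all genes was 0.41.

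Cyr61 (Ccn1, chromosome 3, 145646971 to 145649985), the closest relative of Ctgf among the 10, stood at 1017, 899 and 916 CPM in CDC, 263, 513 and 410 CPM in CDC-EpiC and 314, 331 and 328 CPM in pEpiC. Every CDC library lay above the rest, while the clone libraries spread across the range of pEpiC. Cyr61 fell in CDC-EpiC to 0.416 of its CDC level (log2 −1.27, SE 0.17, adjusted p 7.6e-06 in edgeR) and was lower in pEpiC as well (log2 −1.58, SE 0.07). Between CDC-EpiC and pEpiC the log2 difference was 0.27 (95% interval −0.14 to 0.68, adjusted p 0.199 in edgeR). Without CDC-EpiC library 1 it was 0.50 (adjusted p 0.00098), and under the offset −0.15. Its adjusted p ranged from 0.00098 to 1 over the alternatives.

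Ankrd1 (chromosome 19, 36111965 to 36119844) codes for cardiac ankyrin repeat protein, a stretch-responsive protein of the sarcomere and nucleus. It stood at 378, 364 and 370 CPM in CDC, 43, 66.6 and 54.5 CPM in CDC-EpiC and 208, 220 and 219 CPM in pEpiC, with no overlap between kinds. Ankrd1 fell in CDC-EpiC to 0.147 of its CDC level (log2 −2.77, SE 0.12, adjusted p 2.8e-11 in edgeR) and was lower in pEpiC (log2 −0.82, SE 0.06). Ankrd1 is a gene of heart muscle. The 10 cardiomyocyte markers summed to 29, 29.1 and 9.69 CPM in CDC libraries 1, 2 and 3 and to 10.2 to 12.8 CPM in CDC-EpiC. In pEpiC that sum was 137 to 154 CPM, nearly all from Tnnt2 (3381, 3477 and 3099 counts), and the part of these markers' cells in the Ankrd1 differences was not tested.

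The balance between these targets also differed by kind. In TPM, the ratio of Ctgf to Cyr61 was 0.951, 0.951 and 0.895 in CDC, 0.166, 0.168 and 0.17 in CDC-EpiC and 1.96, 1.93 and 1.79 in pEpiC. The clone libraries thus shared nearly 1 ratio while both genes varied by almost a factor of 2 among them. The ratio of Ctgf to Ankrd1 was 2.06 ± 0.15 in CDC, 1.04 ± 0.136 in CDC-EpiC and 2.47 ± 0.129 in pEpiC (SD, n = 3). These ratios did not overlap between any pair of kinds, and an exact two-sided permutation test gave p = 0.1 each time, the smallest that 3 against 3 allows (adjusted 0.133 over 12 ratio tests).

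Among the clone libraries, Ctgf, Cyr61 and Ankrd1 spread more than nearly all other genes. The highest library was 1.97 times the lowest for Ctgf, 1.95 times for Cyr61 and 1.55 times for Ankrd1, against a median of 1.1 over 4410 genes of at least 50 CPM, and 99.8%, 99.8% and 99.1% of those genes spread less. Library 1 was the lowest for 9 of the 10 genes, all but Amotl1, as it was for 51.5% of those 4410 genes. In CDC and pEpiC the same 3 ratios lay between 1.04 and 1.18. Of 16 further targets of YAP and TAZ with at least 5 CPM in the clone, F3, Igfbp3 and Fjx1 also spread by 1.5 times or more and were lowest in library 1, whereas 1.47% of 10262 genes spread that much.

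**Figure D2:**
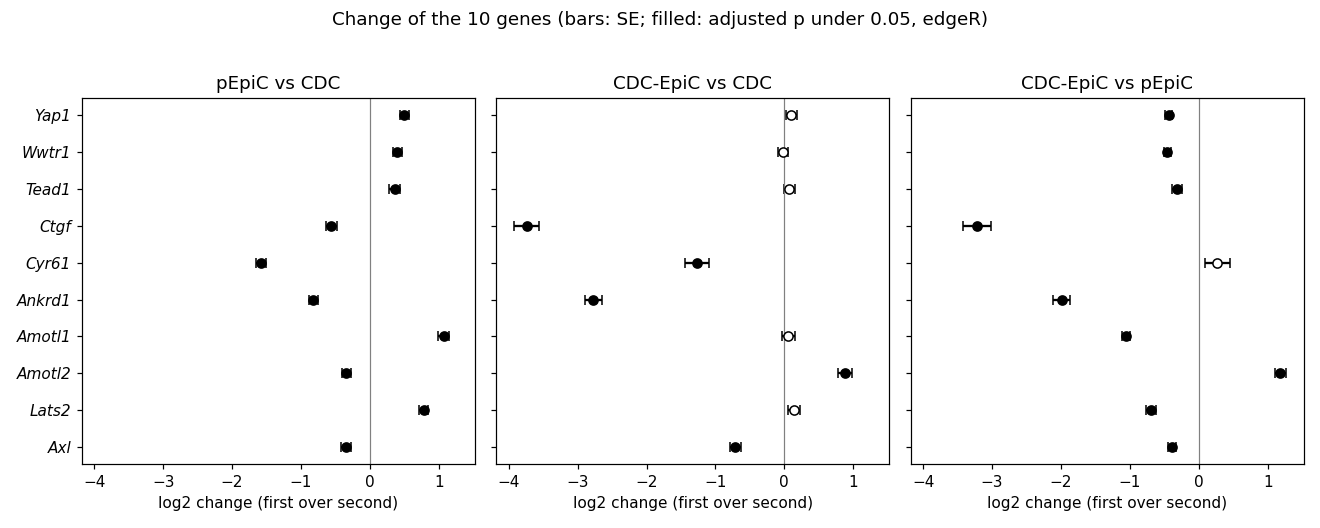
Fitted log2 change of the 10 genes (horizontal axis, first kind over second) in the 3 comparisons, with bars for the SE and filled points for an adjusted p under 0.05 in edgeR. In CDC-EpiC against CDC, Yap1, Wwtr1, Tead1, Amotl1 and Lats2 sit near 0 while Ctgf lies at −3.74, Ankrd1 at −2.77 and Amotl2 at 0.88.

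The genes that restrain YAP and TAZ did not follow Ctgf. Amotl2 (chromosome 9, 102717091 to 102733418), which codes for an angiomotin-like scaffold of cell junctions that holds YAP in the cytoplasm, stood at 521, 470 and 501 CPM in CDC, 793, 983 and 984 CPM in CDC-EpiC and 385, 404 and 416 CPM in pEpiC. All clone libraries lay above all others, and those of CDC above those of pEpiC. Amotl2 rose in CDC-EpiC over CDC by 0.88 on the log2 scale (SE 0.10, edgeR adjusted p 9.7e-07) and over pEpiC by 1.18 (SE 0.08). Its change in pEpiC over CDC was −0.34 (SE 0.06, adjusted p 0.00059 in edgeR), and 0.16 in TPM against a median of all genes of 0.41, or −0.25 relative to that median.

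Amotl1 (chromosome 9, 14541966 to 14662974), a second member of the angiomotin family, stood at 127, 108 and 134 CPM in CDC, 123, 122 and 141 CPM in CDC-EpiC and 262, 262 and 271 CPM in pEpiC. Lats2 (chromosome 14, 57689662 to 57746212), a kinase that phosphorylates YAP and TAZ, stood at 96.1, 90.1 and 97.6 CPM in CDC, 92.3, 109 and 112 CPM in CDC-EpiC and 167, 170 and 164 CPM in pEpiC. For both genes the CDC and clone libraries overlapped and the pEpiC libraries lay above them. Amotl1 and Lats2 rose in pEpiC over CDC by log2 changes of 1.07 (SE 0.08) and 0.78 (SE 0.06), and by 0.65 and 0.62 with the length and GC offset. Between CDC-EpiC and CDC the changes were 0.06 for Amotl1 (95% interval −0.13 to 0.25, adjusted p 0.58) and 0.14 for Lats2 (−0.04 to 0.31, adjusted p 0.165) in edgeR. Lats2 passed without CDC-EpiC library 1 (0.21, adjusted p 0.0348, and 0.035 to 1 over the alternatives). In TPM, Amotl2 exceeded Amotl1 by 8.68 ± 0.652 times in CDC, 15.3 ± 1.79 times in CDC-EpiC and 3.23 ± 0.0818 times in pEpiC (SD, n = 3), with no overlap between kinds (exact two-sided permutation p = 0.1).

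Axl (chromosome 7, 25756500 to 25788924) codes for a receptor tyrosine kinase of the TAM family. It stood at 965, 916 and 998 CPM in CDC, 561, 613 and 602 CPM in CDC-EpiC and 730, 756 and 824 CPM in pEpiC, again without overlap between kinds. Axl fell in CDC-EpiC to 0.613 of its CDC level (log2 −0.71, SE 0.08, adjusted p 1.7e-06 in edgeR). It was lower in pEpiC than in CDC by a log2 change of −0.35 (SE 0.07), which was 0.15 in TPM, or −0.26 relative to the median of all genes there. Macrophages also express Axl, and macrophage markers were high in the pEpiC libraries, where their part in the Axl level was not tested.

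Counted over the 10 genes, 10 passed the test between pEpiC and CDC, 5 higher and 5 lower. Of all 13526 genes tested there 78.3% passed, 39.8% higher and 38.5% lower. Between CDC-EpiC and CDC 5 passed, 1 higher (Amotl2) and 4 lower (Ctgf, Cyr61, Ankrd1 and Axl), against 68.8% of 12976 genes, 34.2% higher and 34.6% lower. Between CDC-EpiC and pEpiC 9 passed, 1 higher and 8 lower, against 81.9% of 13547 genes, 40.3% higher and 41.5% lower. Changes of at least 2-fold were seen in 2 genes in pEpiC over CDC (Amotl1 and Cyr61), 3 in CDC-EpiC over CDC (Ctgf, Cyr61 and Ankrd1) and 4 in CDC-EpiC over pEpiC (Ctgf, Ankrd1, Amotl1 and Amotl2), against 30.1%, 21.7% and 35.9% of all genes tested. The libraries of the kinds did not overlap for 10, 5 and 9 of the genes, against 81.4%, 72.1% and 83.8% of all genes. The median size of the log2 change was 0.53, 0.42 and 0.57 over the 10 genes and 0.61, 0.44 and 0.71 over all genes. Whether the 10 genes differ from all genes in these shares and sizes was not tested, and 10 genes are few for such a comparison. The 3 comparisons share libraries by pairs and are not independent of each other.

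**Figure D3:**
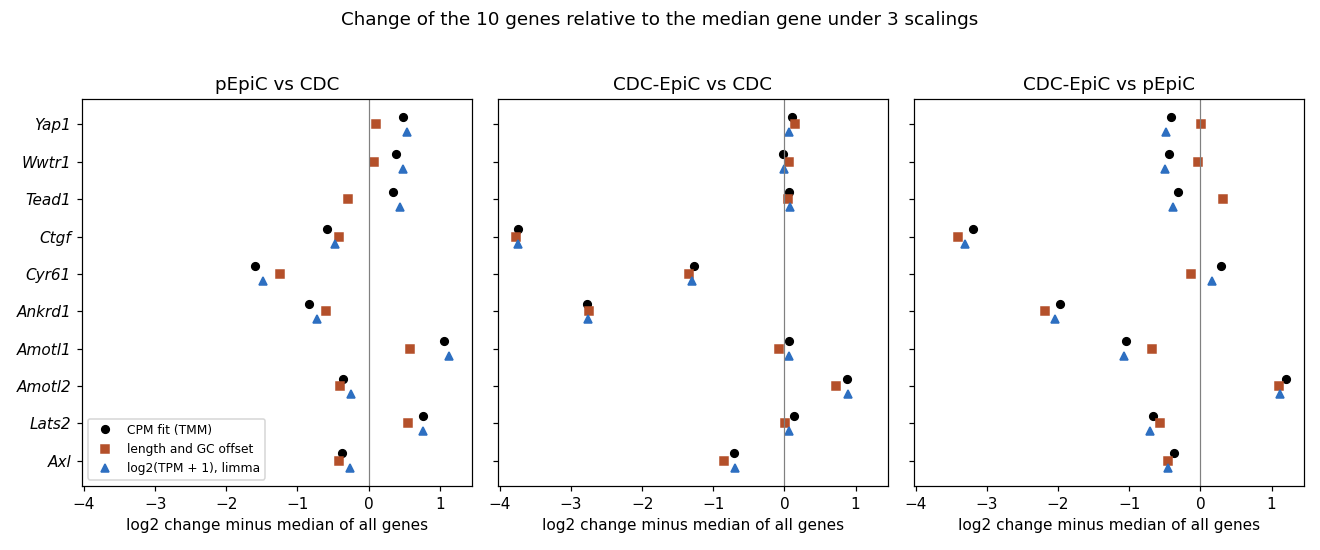
Log2 change of the 10 genes minus the median of all genes (horizontal axis) in the 3 comparisons, from the TMM-normalized count fit, the fit with the length and GC offset and limma on log2(TPM + 1). The 3 estimates nearly coincide in CDC-EpiC against CDC, where Amotl1 and Wwtr1 change side close to the zero line. Tead1 changes side with the offset in both comparisons that involve pEpiC. In CDC-EpiC against pEpiC, Cyr61 (0.29 to −0.13) and Yap1 (−0.42 to 0.01) change side with it too.

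Compared per length, in TPM, the order of the 10 genes differed between kinds. Cyr61 (821 ± 55) and Ctgf (765 ± 56.1) led in CDC and overlapped each other, followed by Axl (411 ± 31.1) and Ankrd1 (371 ± 14.8), which also overlapped (SD, n = 3). In pEpiC Ctgf led (738 ± 40.7), followed without overlap by Axl (456 ± 28.8), Cyr61 (390 ± 16.2) and Ankrd1 (298 ± 12.8). Amotl2 (402 ± 49.9) and Cyr61 (360 ± 111) led in CDC-EpiC and overlapped, and Axl (265 ± 13.4) overlapped with Cyr61. Ctgf (60.6 ± 18.9), Ankrd1 (57.4 ± 11.6), Yap1 (54.6 ± 5.2) and Wwtr1 (49.1 ± 2.87) overlapped from each to the next there. Amotl1 was last in all 3 kinds, at 24 ± 3.29 in CDC, 26.4 ± 2.85 in CDC-EpiC and 71.5 ± 1.53 in pEpiC.

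Of 45 other genes of the pathway in the table, grouped by role, 35 of 43 tested passed between pEpiC and CDC (25 higher, 10 lower), 34 of 42 between CDC-EpiC and CDC (13 higher, 21 lower) and 35 of 43 between CDC-EpiC and pEpiC (10 higher, 25 lower), against 78.3%, 68.8% and 81.9% of all genes. Of all genes, 39.8%, 34.2% and 40.3% were higher and 38.5%, 34.6% and 41.5% lower. Between pEpiC and CDC the pathway split was 21 higher and 16 lower with the length and GC offset. In TPM it was 34 higher and 7 lower, where 74.5% of the calls over all genes were higher. The Hippo kinase core comprises 7 genes besides Lats2, and 6 of them rose in pEpiC over CDC, Stk4 not passing. Lats1, the partner kinase of Lats2, rose most, from 47 ± 5.39 to 113 ± 1.02 CPM (SD, n = 3), a log2 change of 1.23 (SE 0.07). Stk3, which codes for MST2, rose by 0.94 (SE 0.09), and the adaptor genes Mob1a, Mob1b and Sav1 by 0.68, 0.55 and 0.39. Nf2, which codes for the membrane scaffold merlin, rose by 0.20. With the length and GC offset Mob1b lay at −0.02 and Stk4, at 0.02 before, at −0.26 (0.50 in TPM), and the other 5 stayed higher. In the clone, Stk4 and Stk3, the genes of MST1 and MST2, moved opposite ways. Stk4 rose over CDC from 49.1 ± 4.15 to 87.9 ± 1.88 CPM (log2 0.83, SE 0.08), while Stk3 fell from 25.6 ± 3.16 to 17.5 ± 1.18 CPM (log2 −0.56, SE 0.10). Sav1 fell by 0.33 and Mob1a by 0.27, calls that were lost with the length and GC offset and, for Mob1a, also without CDC library 3 or CDC-EpiC library 2, with library size alone and in FPKM and TPM. Lats1 (0.15), Mob1b (−0.06) and Nf2 (−0.07) did not pass, but Lats1 passed with the offset (0.27), with library size alone (0.21) and without CDC library 3 (0.24), and Nf2 with the offset (−0.19). Against pEpiC, Stk4 was higher in the clone (log2 0.77, SE 0.05) and the other 6 genes lower, by 0.32 for Nf2 to 1.54 for Stk3, with Mob1b at 0.18 under the offset.

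The other TEAD factors and the VGLL genes, whose products compete for TEAD, gave 5 genes for testing. Tead2 was lower in the clone and in pEpiC than in CDC (56.5 ± 4.94, 56.3 ± 2.54 and 87.4 ± 5.35 CPM), with log2 changes of −0.64 (SE 0.08) and −0.67 (SE 0.07). Tead4 fell from 9.13 ± 0.679 CPM in CDC to 5.49 ± 0.159 in CDC-EpiC and 1.11 ± 0.269 in pEpiC, log2 changes of −0.74 (SE 0.12) and −3.07 (SE 0.18). Tead3 was lower in the clone than in CDC (log2 −0.30, SE 0.09) and did not pass between pEpiC and CDC (0.02, or past the threshold at 0.21 under the offset and 0.52 in TPM). It was also lower in the clone than in pEpiC (log2 −0.36, SE 0.07), where Tead4 was higher (log2 2.28, SE 0.19) and Tead2 did not pass (−0.01, or past the threshold at −0.29 under the offset and −0.39 in TPM). Vgll3 stood at 274 ± 20.8 CPM in CDC, 333 ± 16.2 in CDC-EpiC and 552 ± 7.81 in pEpiC. It rose over CDC by log2 changes of 0.27 (SE 0.08) in the clone and 0.97 (SE 0.07) in pEpiC, and its difference between clone and pEpiC, −0.74, was −0.02 with the offset. Vgll4, a repressor of TEAD activity, rose in the clone over CDC by 0.37 (SE 0.08), lay at −0.02 in pEpiC over CDC without passing (past it at 0.38 under the offset and 0.48 in TPM), and was 0.34 higher in the clone than in pEpiC, or −0.10 with the offset and −0.09 in TPM.

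**Figure D4:**
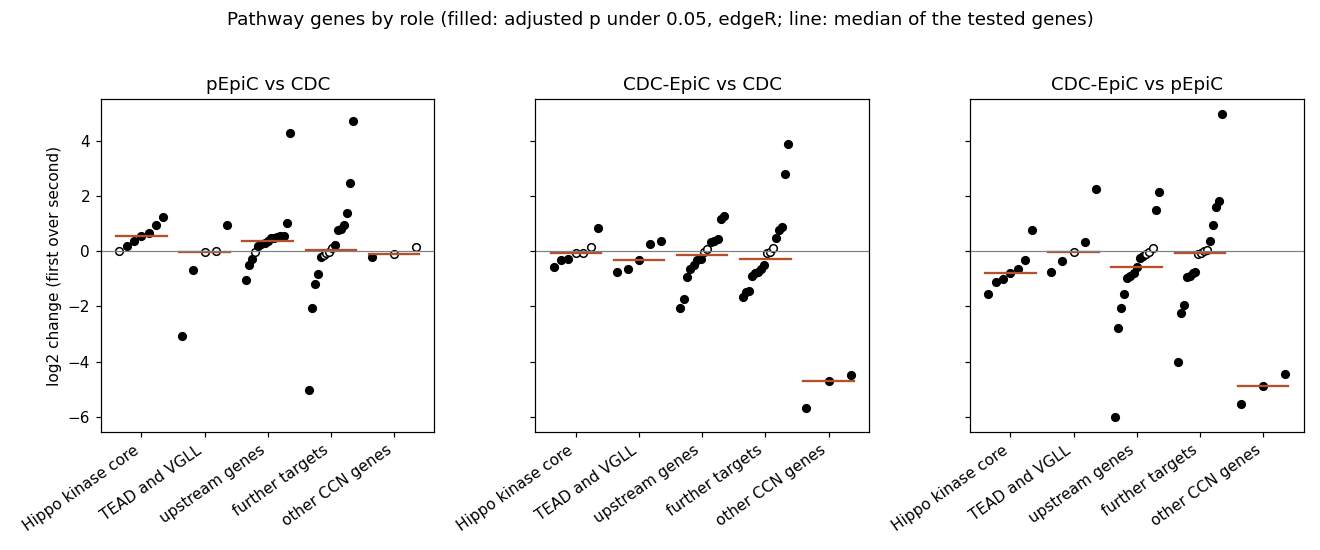
Log2 change of the tested genes of each role (vertical axis, first kind over second) in the 3 comparisons, with filled points for an adjusted p under 0.05 in edgeR and a line at the median of each group. The 3 other CCN genes lie at −4.49 or lower in CDC-EpiC against CDC, below every gene of the other roles, and near 0 in pEpiC against CDC.

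Among upstream genes, which act at the membrane or on the kinases, 14 of 15 tested passed between pEpiC and CDC (11 higher, 3 lower), 12 of 14 between CDC-EpiC and CDC (5 higher, 7 lower) and 12 of 15 between CDC-EpiC and pEpiC (2 higher, 10 lower), against 78.3%, 68.8% and 81.9% of all genes. With the length and GC offset the first of these was 7 higher and 4 lower, with Wwc2, Taok1 and Amot changing direction, and the last 4 higher and 9 lower, with Taok1 changing direction. In TPM, Ajuba and Wtip changed direction between pEpiC and CDC. The atypical cadherin gene Fat1 fell in the clone from 930 ± 147 CPM in CDC to 228 ± 14.1 CPM, by −2.04 on the log2 scale (SE 0.11, edgeR adjusted p 2.9e-10). Its relative Fat4 stood at 29.5 ± 4.57 CPM in CDC, 8.94 ± 0.554 in CDC-EpiC and 61.7 ± 3.12 in pEpiC, with log2 changes of 1.03 (SE 0.10) in pEpiC over CDC and −2.80 (SE 0.07) in the clone over pEpiC. Wwc1, which codes for the scaffold KIBRA, went the other way, at 24.2 ± 0.777, 55.2 ± 4.14 and 12.1 ± 0.752 CPM in CDC, CDC-EpiC and pEpiC, a log2 difference of 2.17 (SE 0.08) between clone and pEpiC and of −1.03 (SE 0.08) between pEpiC and CDC. Ajuba, whose LIM protein inhibits LATS kinases, rose in the clone from 53.9 ± 2.72 to 132 ± 19.7 CPM (log2 1.28, SE 0.10).

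Of 16 further targets, 12 passed between pEpiC and CDC (7 higher, 5 lower), 13 between CDC-EpiC and CDC (5 higher, 8 lower) and 12 between CDC-EpiC and pEpiC (5 higher, 7 lower), against 78.3%, 68.8% and 81.9% of all genes. The balance of directions depended on the scaling. In pEpiC over CDC it was 6 higher and 9 lower with the length and GC offset, and 11 higher and 4 lower in TPM. In CDC-EpiC over pEpiC it was 6 higher and 7 lower with the offset, and 4 higher and 10 lower in TPM. Igfbp3, a secreted carrier of insulin-like growth factors, was low in CDC (18.5 ± 5.27 CPM) and higher in CDC-EpiC (275 ± 66.2) and pEpiC (509 ± 37.4), with log2 changes of 3.89 (SE 0.19) and 4.75 (SE 0.17). Nt5e, which codes for the ectoenzyme CD73, was at 57.9 ± 6.28 and 57.2 ± 3.92 CPM in CDC and the clone and at 1.81 ± 0.142 CPM in pEpiC, a log2 change of −5.03 (SE 0.11) in pEpiC over CDC and 4.97 (SE 0.09) in the clone over pEpiC. The transcription factor gene Foxf2 fell in the clone from 21.5 ± 1.93 to 6.8 ± 1.15 CPM (log2 −1.67, SE 0.12). The RNA-binding protein gene Rbms3 was at 10.5 ± 0.529 CPM in the clone and 167 ± 11.7 CPM in pEpiC (log2 −4.01, SE 0.07).

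The relatives of Ctgf and Cyr61 in the CCN family of matricellular proteins fell more steeply in the clone than Ctgf itself. Wisp2 (Ccn5) had 12415, 12212 and 11143 counts in CDC, 212, 229 and 271 in CDC-EpiC and 12222, 10872 and 10561 in pEpiC. Wisp1 (Ccn4) had 5513, 5090 and 5964 counts in CDC, 253, 174 and 229 in CDC-EpiC and 6235, 6700 and 7044 in pEpiC. Nov (Ccn3) had 1582, 1417 and 2119 counts in CDC, 72, 70 and 91 in CDC-EpiC and 1724, 1724 and 1779 in pEpiC. For all 3 genes the clone libraries lay far below all others, and in CPM CDC and pEpiC overlapped. The log2 changes in CDC-EpiC over CDC were −5.69 (SE 0.11), −4.70 (SE 0.12) and −4.49 (SE 0.16), and the largest edgeR adjusted p of the 3 was 1.8e-12. The 95% interval of Nov (−4.83 to −4.16), the smallest of these falls, did not reach that of Ctgf (−4.13 to −3.34). Between pEpiC and CDC they were −0.20, 0.16 and −0.08. Of these, Wisp2 alone passed (adjusted p 0.0379 in edgeR), and it lay at 0.35 with the length and GC offset and 0.31 in TPM. That call was also lost with library size alone, in FPKM, in the fit of all 9 libraries and without CDC library 1 or 2 or pEpiC library 2 or 3. Wisp1 passed in DESeq2 (0.17), with library size alone (0.27), in FPKM (0.28), in TPM (0.66), without CDC library 3 (0.20) and without pEpiC library 1 (0.21), and Nov passed in TPM (0.44). Together with Ctgf and Cyr61, both already counted above, 5 of 5 CCN genes tested fell in the clone relative to CDC. Of all 12976 genes tested there, 34.6% passed and were lower in the clone.

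**Figure D5:**
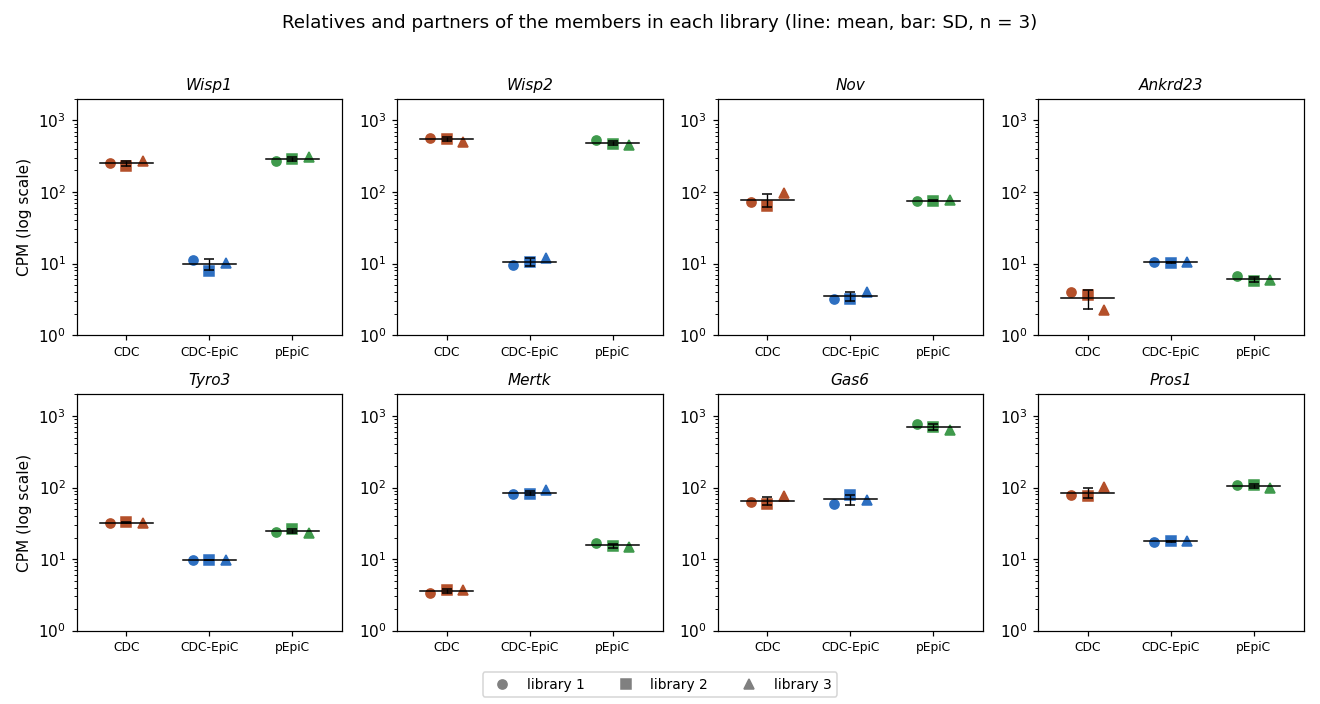
Level in CPM (vertical axis, log scale) of 3 further CCN genes, of Ankrd23, of the other TAM receptor genes Tyro3 and Mertk and of the TAM ligand genes Gas6 and Pros1 in each library, with a line at the mean and a bar for the SD (n = 3). Wisp1, Wisp2 and Nov lie lowest in CDC-EpiC and Mertk lies highest there, while Gas6 stands apart in pEpiC.

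The other TAM receptors, which share ligands with AXL, differed from Axl and from each other. Mertk had 72, 81 and 82 counts in CDC, 1856, 1783 and 2061 in CDC-EpiC and 385, 350 and 336 in pEpiC, and no libraries overlapped between kinds. It rose in the clone over CDC by 4.56 on the log2 scale (SE 0.10, edgeR adjusted p 1.9e-14). Mertk is also a macrophage gene. Of the 10 macrophage markers, Cd68 rose in the clone over CDC too, from 1.96 ± 0.335 to 13.3 ± 1.06 CPM (log2 2.75, SE 0.15), whereas Csf1r (log2 −1.07, SE 0.09) and Lyz2 (log2 −5.24, SE 0.13) fell. The other 7, Adgre1 and Ptprc among them, had at most 3 counts in any clone library, and the part of macrophages in the Mertk change was not tested. Tyro3 fell in the clone from 32.3 ± 0.851 to 9.66 ± 0.0767 CPM (log2 −1.75, SE 0.08). Of the ligand genes, Gas6 had 1362, 1291 and 1665 counts in CDC, 1318, 1745 and 1518 in CDC-EpiC and 18154, 16256 and 14719 in pEpiC, a log2 change of 3.40 (SE 0.11) in pEpiC over CDC, and macrophage markers were high in the same pEpiC libraries (their part was not tested). Gas6 did not pass between clone and CDC (log2 0.05, 95% interval −0.19 to 0.29). Pros1 fell in the clone from 84.9 ± 14 to 17.7 ± 0.4 CPM (log2 −2.27, SE 0.11). Ankrd23, a relative of Ankrd1 in the same ankyrin repeat family, moved opposite to it, with 88, 79 and 49 counts in CDC, 239, 225 and 236 in CDC-EpiC and 153, 131 and 135 in pEpiC, a log2 change of 1.66 (SE 0.17) in the clone over CDC.

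Likeness of pattern was taken as Pearson's r of log2(CPM + 1) over the 9 libraries, among 9472 genes of at least 10 CPM on average. The 9 points form 3 groups of libraries that share a kind of cell, so the values describe mainly the order of the kinds. The genes most like Ctgf included Fam20c (r = 0.995), Pcsk6 (0.995), Slco3a1 (0.995) and Tgfb1 (0.994). Tgfb1, which codes for the ligand TGF-beta 1, averaged 129, 55.9 and 122 CPM in CDC, CDC-EpiC and pEpiC. The 5 most like Yap1 were Tm9sf2 (r = 0.993), Zfp236 (0.991), Herpud2 (0.991), Rnf11 (0.99) and Golph3 (0.989). Tm9sf2 averaged 148, 168 and 231 CPM in CDC, CDC-EpiC and pEpiC.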

How the data were processed

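The authors deposited, per gene and library, expected counts (RSEM estimates, not whole for 30.3% of values), FPKM and TPM. The submitters' processing notes name HISAT2 2.0.4, Bowtie2 2.2.5, RSEM 1.2.12, DESeq2 1.4.5 and mm10, and reads were 100-base pairs from a BGISEQ-500. The 9 columns of the authors' means were not used. Use of strand is not given in the sources used here. Expected counts were rounded and the 6 libraries of each pair of kinds fitted in edgeR 4.0.16 (R 4.3.3) after filterByExpr (minimum count 10, minimum total count 15) and TMM normalization, with glmQLFTest and Benjamini-Hochberg adjustment over all genes at 0.05. Alternatives used DESeq2 1.42.0 and limma 3.58.1, the latter on log2(FPKM + 1), log2(TPM + 1) and log2(TPM + 0.1), and an offset for transcript length and GC content, known for 96.7% of genes. Tested on simulated data with 200 changed genes, as many up as down, the fit recovered 99% to 100% of changes of log2 size 1. It recovered 88% to 95% of size 0.58. In the real data most genes tested passed, a setting that the simulation did not cover. Counts differed between libraries of a kind by more than sampling noise (chi-square per degree of freedom 4.89 to 23).

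The members, gene lists and tests were chosen with earlier results of these data known. Named genes are the 10 members, all tested genes of the kinase core and the TEAD and VGLL group, the largest rise and fall past the threshold with at least 5 CPM among upstream genes and further targets, the relatives of Ctgf, Axl and Ankrd1, and the 5 genes most like Ctgf and Yap1, of which 1 is not reported here. Tables were read with pandas 2.3.3 and NumPy 2.4.6 in Python 3.11.15, and figures drawn with matplotlib 3.10.9.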

Additional observations from a re-analysis of the deposited data

How the results depend on the processing

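Of 510 log2 changes of the 10 genes recomputed under the alternatives, 472 kept their direction and side of the threshold. Tested against a 1.5-fold change, 4 of the 10 genes passed in pEpiC over CDC and 5 in CDC-EpiC over pEpiC. Of the other pathway genes, 16 of 43 passed in pEpiC over CDC and 16 of 42 in CDC-EpiC over CDC. The counts over all genes were 5549 of 13526 in pEpiC over CDC and 3664 of 12976 in CDC-EpiC over CDC. In CDC-EpiC over pEpiC the count was 6578 of 13547. These changes turned direction. In pEpiC over CDC, Amotl2 was 0.16 and Axl 0.15 in TPM with either pseudocount, and Tead1 was −0.22 with the length and GC offset. In CDC-EpiC over CDC, Amotl1 was −0.06 with the offset and Wwtr1 0.09, and Wwtr1 was 0.04 with library size alone, 0.04 in FPKM and 0.06 in TPM. With 1 library left out, Amotl1 ranged from −0.03 to 0.12 there and Wwtr1 from −0.06 to 0.01. In CDC-EpiC over pEpiC, Cyr61 was −0.15 with the offset and −0.16 in TPM, and Tead1 was 0.30 with the offset. Beyond the median shift of all genes in TPM, the cause was not tested. Whether the library numbers pair the kinds cannot be settled with 3 libraries a kind. The correlations of same-numbered deviations from the group means were 0.116, −0.0351 and 0.163 for pEpiC and CDC, −0.0141, −0.101 and 0.0509 for CDC-EpiC and CDC, and 0.119, −0.0336 and 0.0472 for CDC-EpiC and pEpiC, and 4, 1 and 3 of the 6 samples of these comparisons correlated best with their own number. With the library number as a replicate block 10, 5 and 9 of the members passed in the same order and no call of a member changed, while 10604, 8831 and 11096 of all genes passed, against 10593, 8928 and 11091 without it. With 3 libraries a kind and 1 clone, depth does not limit these genes, whose counts were at least 970 in every library.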

Other observations

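Among 4329 genes of at least 50 CPM in CDC-EpiC, Ctgf and Cyr61 ranked 2 and 3 by the ratio of the highest to the lowest clone library. The genes with the widest spread, named after their values were seen, included Bcl3 (2.3 times), Lif (1.88), Cdh13 (1.78), Phlda1 (1.75), Jun (1.71) and Thbs1 (1.68). Thbs1, which codes for the matricellular protein thrombospondin 1, stood at 385, 648 and 464 CPM, and Jun, a subunit of AP-1, at 39.2, 67.1 and 60.3 CPM in clone libraries 1, 2 and 3. Thbs1, Jun, Ctgf, Cyr61 and Ankrd1 all lay lowest in library 1 and highest in library 2. Not all widely spread genes shared that order, as Bcl3 (47.9, 104 and 45.3 CPM) and Hist1h2ap (96.3, 82.1 and 156 CPM) did not.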
